A study of Homo sapiens with 25 samples.

Results

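MDA-MB-453 cells sampled 24 h after erlotinib are described here on 3 Affymetrix arrays, against 3 arrays of the same line at 0 min, out of 25 arrays in the series. The 6 arrays were chosen by cell line and time as the labels give them. MDA-MB-453 is an established human breast cancer line, and erlotinib is an inhibitor of the EGFR kinase. Cells were plated in medium with serum, left to adhere for 24 h and given erlotinib to 10 µM, and the labels give that agent and dose to the 0 min arrays as well. The other 19 arrays are 13 of the breast cancer line BT20, at 4 times, and 6 of a line labelled only MCF, at 24 h and 0 min. The labels place the MCF arrays in another part of the series than those of MDA-MB-453 and BT20. Line and part therefore cannot be told apart where MCF is compared. No untreated culture at 24 h was analysed here, so the drug and a further day in culture cannot be told apart. The labels do not say whether replicates are separate cultures, so each p-value measures only the spread between these arrays. Values are deposited log2 GCRMA values (a normalized probe brightness), each gene is read from 1 probe set, and levels are not compared between genes. A change is the 24 h mean minus the 0 min mean.

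EGFR, ERBB2, ERBB3 and ERBB4 form the ErbB family of receptor kinases. They signal as dimers through the RAS to ERK and the PI3K to AKT cascades, and ERBB2, which has no known ligand, pairs with the others. Cells with active ERK keep feedback phosphatases such as DUSP6 and Sprouty proteins transcribed. Inhibition of AKT lets FOXO transcription factors enter the nucleus. ATF4 is a transcription factor made when amino acids run short or the endoplasmic reticulum is stressed.

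The labelled cell type was checked on its markers. EGFR was at 3.70, 3.35 and 3.67 on the 24 h arrays and at 3.64, 3.29 and 3.66 on the 0 min arrays. No EGFR probe set passed 3.70 on any of the 6 arrays, whereas EGFR averaged 12.38 ± 0.15 (SD, n = 4) in BT20 at 0 min. ERBB2 averaged 11.08 ± 0.37 at 24 h and 11.07 ± 0.26 at 0 min (SD, n = 3 each), and its 0 min means in the other lines were 8.15 in BT20 and 6.36 in MCF. Of 25 luminal and apocrine markers, 17 were tested, among them GATA3 at 13.05 and 12.98 (24 h and 0 min means) and AGR2 at 13.21 and 13.12. ESR1, the oestrogen receptor, averaged 2.70 and 2.61, which is below the level of 4 used as a filter. Of markers of other cells, 0 of 7 blood cell markers and 0 of 7 endothelial markers were tested. Averaged over the list, blood cell markers lay between 2.23 and 2.51 on the 24 h arrays and between 2.31 and 2.50 on the 0 min arrays, and endothelial markers between 2.47 and 2.48 and between 2.39 and 2.58. Of 11 fibroblast markers 2 were tested, COL1A1 (11.18 and 11.11) and FN1, whereas COL3A1 averaged 2.61 and 2.49. The 11 fibroblast markers averaged 3.27 to 3.52 at 24 h and 3.40 to 3.66 at 0 min.

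Arrays of 1 group correlated at 0.981 to 0.995 across the tested genes and arrays of different groups at 0.967 to 0.987. The first principal component held 54.1% of the variance and separated 24 h from 0 min, and the second, with 29.5%, separated arrays inside the groups. Deviations from the group means moved together in 24 h replicate 2 and 0 min replicate 3, with r = 0.712 across genes. Between 24 h replicates 2 and 3 r was -0.876. Deviations of 3 arrays from their own mean sum to 0, so a negative r is built in inside a group. All pairs inside a group were negative, from -0.169 to -0.876. These within-group differences are measured, and their source was not tested. The count of called genes and the counts of some lists are given below with and without the 2 arrays that deviate together.

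At 24 h, 769 genes were higher than at 0 min and 385 were lower, which is 7.09% and 3.55% of the 10848 genes tested, by limma on the 6 arrays with a Benjamini-Hochberg adjusted p under 0.05. At least 2-fold differences were called in 237 of the genes that rose and 58 of those that fell. The median change over all tested genes was 0.025. Each list count below is to be read against these shares of 7.09% and 3.55%, near which lists with few calls can lie. The 3 values of each time did not overlap in any of the 1154 called genes. Over all tested genes, the 24 h values lay wholly above the 0 min values in 2068 (19.1%) and wholly below in 1460 (13.5%). A fit to all 25 arrays called 544 of these genes higher (5.01%) and 205 lower (1.89%), of which 617 were called in the same direction by the fit to 6 arrays. The count of 1154 fell to 340 without 24 h replicate 1, to 537, 445 and 527 without 0 min replicates 1, 2 and 3, and was 632 without the 2 arrays that deviate together. As these are bulk arrays, fewer cells of a kind and less RNA per cell cannot be told apart.

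**Figure D1:**
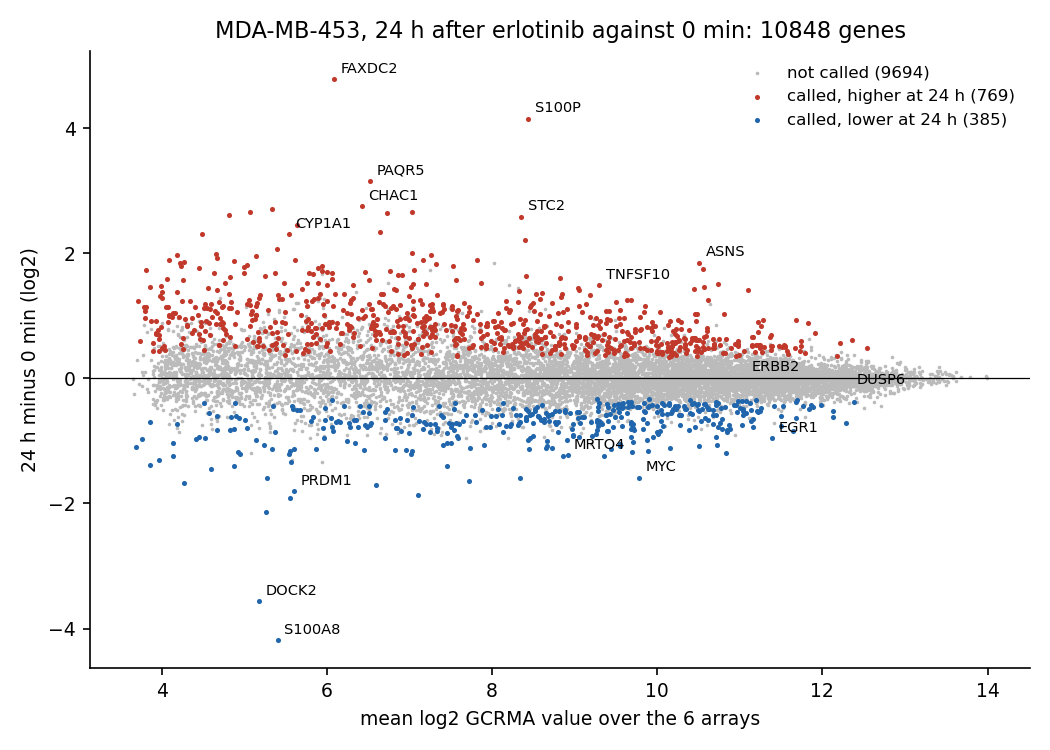
Change at 24 h against 0 min (log2, vertical axis) by mean level over the 6 arrays (log2, horizontal axis), 1 point per gene. Red and blue points are the 769 called higher and 385 called lower genes, grey points are not called. FAXDC2 and S100P lie highest and S100A8 and DOCK2 lowest, while ERBB2 and DUSP6 lie near 0.

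Genes with the largest rises were FAXDC2, a gene for a fatty acid hydroxylase domain protein, and S100P, a small calcium-binding protein secreted by many carcinomas. S100P was at 10.43, 10.61 and 10.51 on the 24 h arrays, against 6.25, 6.45 and 6.38 on the 0 min arrays. Its times were separated by far more than their spread, and the change of 4.15 ± 0.10 (SE) was a 17.8-fold rise with an adjusted p of 2.59e-05. FAXDC2 was at 8.71, 8.05 and 8.68 at 24 h, against 3.87, 3.40 and 3.81 at 0 min, a change of 4.79 ± 0.22 (adjusted p = 0.000677). Its size is inexact because the 0 min values lie below 4, and another tested FAXDC2 probe set gave 3.15. PAQR5, a membrane progestin receptor, was at 7.81, 8.32 and 8.17 at 24 h, against 4.86, 4.33 and 5.64 at 0 min. CREB3L1, a transcription factor released from the endoplasmic reticulum by cleavage, was at 8.27, 8.20 and 8.64 at 24 h, against 6.22, 5.67 and 5.23 at 0 min. The changes of PAQR5 and CREB3L1 were 3.15 ± 0.33 (adjusted p = 0.0039) and 2.66 ± 0.26 (adjusted p = 0.0033). The others among the 12 largest rises were CHAC1, TMEM178A, KLHDC1, ADHFE1, DQX1, STC2, KLHDC9 and BPIFA4P, with changes of 2.34 to 2.75. For TMEM178A, KLHDC1 and DQX1 the 0 min mean was below 4.

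S100A8, a subunit of the inflammatory protein calprotectin, had the largest fall. It was at 3.61, 2.99 and 3.35 at 24 h, against 7.65, 7.68 and 7.15 at 0 min, so it left the measured range (change -4.18 ± 0.21, adjusted p = 0.000941). DOCK2, an exchange factor for RAC best known in leukocytes, was at 3.50, 3.59 and 3.11 at 24 h, against 6.58, 6.99 and 7.30 at 0 min (change -3.56 ± 0.21, adjusted p = 0.00148). Both stood clear of the filter level at 0 min only, and how far they fell is inexact. PRDM1, a transcriptional repressor of terminal differentiation, was at 4.45, 4.72 and 4.94 at 24 h, against 6.58, 6.35 and 6.60 at 0 min (change -1.81 ± 0.15). HMOX1, the haem oxygenase induced by oxidative stress, was at 6.04, 5.63 and 5.58 at 24 h, against 7.20, 7.29 and 7.86 at 0 min (change -1.70 ± 0.21). The adjusted p-values of PRDM1 and HMOX1 were 0.00234 and 0.0063. GBP2, an interferon-induced GTPase, fell by 1.64, CTSC, a lysosomal protease, fell by 1.59, and GPAT3, an enzyme of glycerolipid synthesis, fell by 1.40. BBOX1, LINC01208, FBXO32, C2CD4A and MYC complete the 12 largest falls, with changes of -2.13 to -1.59.

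**Figure D2:**
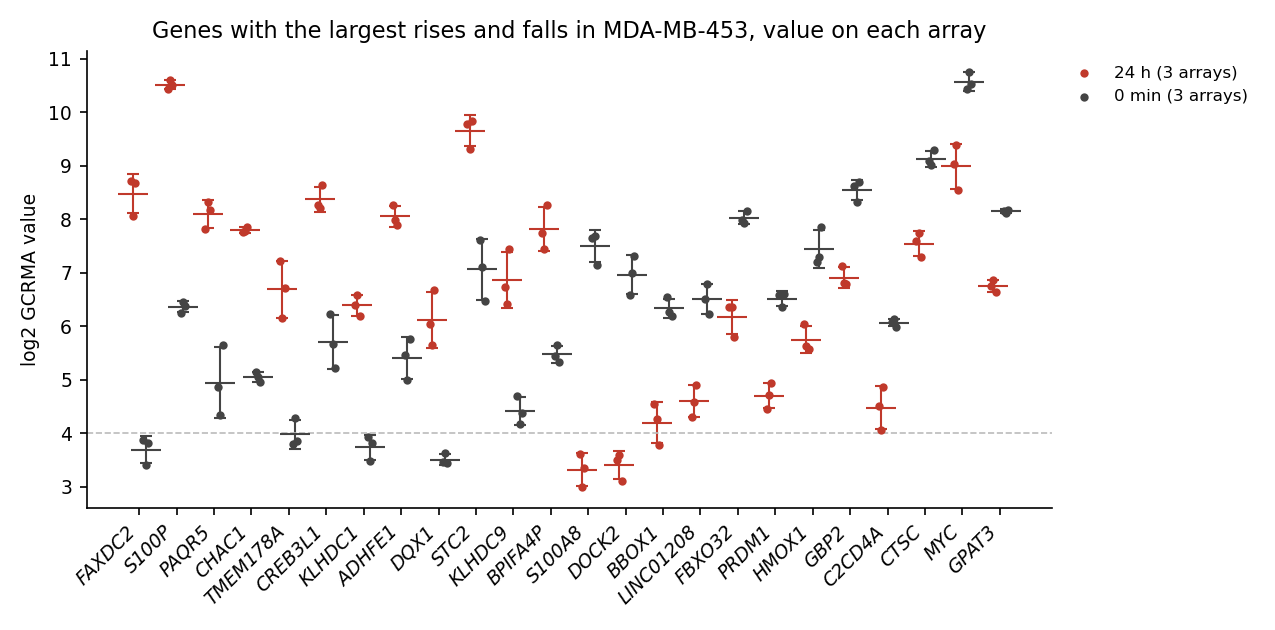
Log2 GCRMA value on each array for the 12 genes with the largest rises (left) and the 12 with the largest falls (right), 24 h in red left of 0 min in grey. Points are arrays, bars are the mean ± SD of 3, and the dashed line is the filter level of 4. Lack of overlap between the times was a condition for choosing these genes. S100A8 and DOCK2 lie below 4 on all 24 h arrays.

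Transcripts of the ErbB receptors gave no call. ERBB2 was at 11.12, 11.43 and 10.69 at 24 h, against 10.88, 10.95 and 11.36 at 0 min. The groups overlapped, and the change was 0.01 ± 0.22 (adjusted p = 0.982). ERBB3, the kinase-poor partner of ERBB2, changed by 0.16 ± 0.10 (adjusted p = 0.357). ERBB4 was at 8.80, 8.54 and 9.19 at 24 h, against 8.38, 7.96 and 8.09 at 0 min, a change of 0.70 ± 0.19 that missed the threshold (adjusted p = 0.0668) and passed it in the fit to 25 arrays. A second tested ERBB4 probe set gave -0.22. Of 9 ligand genes 2 were tested, and both rose: NRG3, a neuregulin, by 0.54 ± 0.11 (adjusted p = 0.0292) and TGFA, a ligand of EGFR, by 0.46 ± 0.10 (adjusted p = 0.0331). TGFA stood at 4.44, 4.41 and 4.61 at 24 h, against 3.94, 4.00 and 4.12 at 0 min, close to the filter level. Of 19 adaptors and negative regulators, 3 rose (CBLB, GAB2 and LRIG2, changes of 0.45 to 0.55) and LRIG1, which promotes ErbB receptor loss, fell by 0.42. These 6 calls were lost in at least 5 of the 6 fits that leave out 1 array, and the other tested LRIG2 probe set gave -0.44. INSR, the insulin receptor, rose by 0.64 ± 0.10 (adjusted p = 0.0147), the only call among 15 other receptor tyrosine kinases, and was not called without 0 min replicate 1, 0 min replicate 3 or 24 h replicate 1.

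Transcripts that follow ERK activity fell in 3 of 19 genes, and none rose. The median change was -0.19, against 0.025 over all genes. DUSP6, the ERK phosphatase, was at 12.29, 12.13 and 12.30 at 24 h, against 12.42, 12.42 and 12.44 at 0 min, a change of -0.19 ± 0.09 (adjusted p = 0.228). Its 24 h values lay just below its 0 min values without overlap. SPRY4, a Sprouty inhibitor, was at 9.10, 9.29 and 8.85 at 24 h, against 9.22, 9.13 and 9.15 at 0 min, with overlapping groups and a change of -0.09 ± 0.13 (adjusted p = 0.725). Neither gene was called on these probe sets. Of the other tested DUSP6 probe sets, 1 gave -0.08 and 1 gave -0.76 ± 0.14, with means of 10.56 at 24 h and 11.32 at 0 min and an adjusted p of 0.032 over all probe sets, so the DUSP6 probe sets differ on whether it fell. The 3 genes that fell were MYC, EGR1 and DUSP5, and each was called in all 6 fits that leave out 1 array. EGR1, an immediate early zinc finger factor, was at 10.74, 11.00 and 11.02 at 24 h, against 11.81, 12.03 and 11.78 at 0 min (change -0.95 ± 0.12, adjusted p = 0.00662). DUSP5, a nuclear ERK phosphatase, changed by -0.71 ± 0.10 (adjusted p = 0.0103), with an adjusted p of 0.35 in the fit to 25 arrays. CCND1, encoding cyclin D1, changed by -0.29 ± 0.13 (adjusted p = 0.216). Among 21 immediate early genes, 4 rose (ATF3, FOSL2, KLF2 and ZFP36) and 2 fell (EGR1 and CCN1), with a median of -0.05. The KLF2 probe set used rose by 0.38, whereas the other tested KLF2 probe set gave -1.73. The 4 and 2 were 1 and 1 when any 1 of the 0 min arrays was left out, without 24 h replicate 1 or without 24 h replicate 3, and the calls of FOSL2, KLF2 and CCN1 were lost in those 5 fits.

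**Figure D3:**
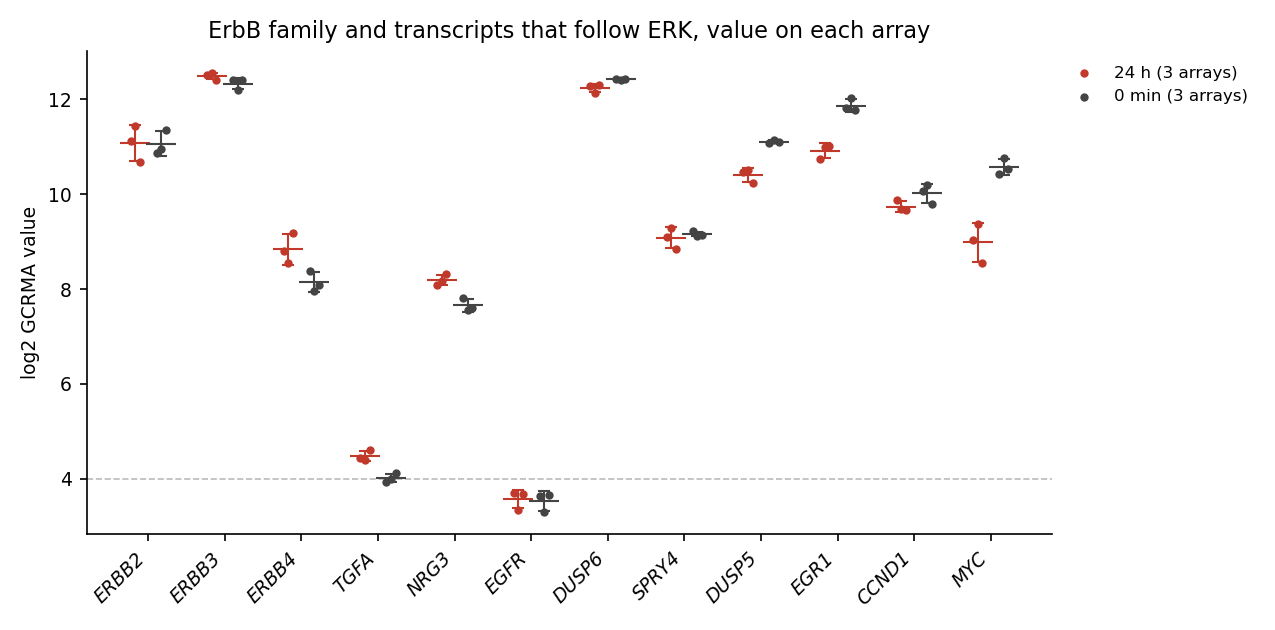
Log2 GCRMA value on each array for ErbB receptors and ligands and for transcripts that follow ERK, 24 h in red left of 0 min in grey. Points are arrays, bars are the mean ± SD of 3, and the dashed line is the filter level of 4. EGFR lies below 4 on all 6 arrays, ERBB2 overlaps between times, and EGR1, DUSP5 and MYC lie lower at 24 h.

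Of 33 tested targets of ATF4 and of endoplasmic reticulum stress, 17 rose and 1 fell, beside 7.09% and 3.55% of all genes. Their median change was 0.52. The promoters of CHAC1 and ASNS, named ATF4 targets that rose, are shown because they hold the composite element TGATGNAA, which ATF4 pairs bind, in capitals. Each runs 5′ to 3′ on the gene's strand from 250 bases before to 50 after the start (RefSeq, GRCh38.p14), at chr15:40953221-40953520 on the plus strand for CHAC1, where the element reads on the opposite strand, and at chr7:97872359-97872658 on the minus strand for ASNS.
CHAC1: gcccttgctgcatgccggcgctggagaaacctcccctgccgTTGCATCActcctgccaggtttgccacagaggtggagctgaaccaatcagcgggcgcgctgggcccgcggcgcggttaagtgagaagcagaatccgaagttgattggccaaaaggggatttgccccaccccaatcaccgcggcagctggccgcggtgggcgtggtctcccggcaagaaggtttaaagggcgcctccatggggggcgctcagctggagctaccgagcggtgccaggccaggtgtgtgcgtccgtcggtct
ASNS: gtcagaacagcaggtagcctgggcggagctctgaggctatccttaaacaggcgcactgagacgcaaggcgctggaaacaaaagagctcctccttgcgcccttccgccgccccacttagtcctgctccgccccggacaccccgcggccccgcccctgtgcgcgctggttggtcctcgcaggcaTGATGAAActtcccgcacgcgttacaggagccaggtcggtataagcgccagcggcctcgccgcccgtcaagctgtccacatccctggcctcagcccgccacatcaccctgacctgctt
The element, searched on both strands, was in the promoters of 5 of the 15 risen members that had one in the table (CHAC1, ASNS, ATF3, HERPUD1 and SLC3A2), which is 33.3%. Among all tested members with a promoter in the table, whether they rose or not, it was in 6 of 29 (20.7%). It was in 3.67% of all 27305 promoters, 1.70% of those of tested genes and 3.88% of those of all genes called higher. A match of letters is a description and not a site of binding.

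CHAC1, which breaks down glutathione, was at 7.75, 7.78 and 7.86 at 24 h, against 5.14, 5.04 and 4.96 at 0 min (change 2.75 ± 0.09, adjusted p = 0.000127). ASNS, asparagine synthetase, was at 11.46, 11.31 and 11.54 at 24 h, against 9.66, 9.70 and 9.40 at 0 min (change 1.85 ± 0.12, adjusted p = 0.00163). The times were far apart in both genes. SLC7A11, the cystine importer, was at 11.48, 11.63 and 11.35 at 24 h, against 10.15, 10.00 and 9.79 at 0 min (change 1.50 ± 0.13, adjusted p = 0.00273). ATF3, a stress-induced partner and target of ATF4, was at 5.85, 5.87 and 5.86 at 24 h, against 4.75, 4.50 and 4.34 at 0 min (change 1.33 ± 0.12, adjusted p = 0.00302). Smaller calls included DDIT3, encoding CHOP, with a change of 1.10, TRIB3, a pseudokinase that restrains ATF4, with 0.71, and HERPUD1, of endoplasmic reticulum degradation, with 0.60. SDF2L1, an endoplasmic reticulum chaperone cofactor, was the member that fell, by 1.03, and was not called without 0 min replicate 1 or 24 h replicate 1. Of 23 genes for amino acid synthesis and tRNA ligases, 5 rose and 1 fell. PHGDH, which begins serine synthesis, changed by 1.75 ± 0.20 (adjusted p = 0.00484) and had an adjusted p of 0.0965 in the fit to 25 arrays. VARS1, the valine tRNA ligase, fell by 1.14 and was not called without 0 min replicate 2. The 5 that rose were 3 without 0 min replicate 2, without 0 min replicate 3 or without the 2 arrays that deviate together, and 2 without 24 h replicate 1. The count of 17 was 10 without 24 h replicate 1 and 12 without the 2 arrays that deviate together. It was 12 in the fit to 25 arrays, and the lowest count under any alternative was 6.

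Genes that MYC activates and genes of ribosome assembly moved the other way. Of 25 tested members 13 fell and none rose, beside 3.55% and 7.09% of all genes, with a median change of -0.56. The 13 include MYC itself, which is also counted in the ERK output list. MYC, the transcription factor itself, was at 9.03, 9.38 and 8.55 at 24 h, against 10.42, 10.76 and 10.53 at 0 min. The times did not overlap, and the change of -1.59 ± 0.22 had an adjusted p of 0.0087 on the 6 arrays and 0.177 in the fit to 25 arrays. MRTO4, a factor of large-subunit assembly, was at 8.30, 8.46 and 8.15 at 24 h, against 9.41, 9.60 and 9.57 at 0 min (change -1.22 ± 0.11, adjusted p = 0.00306). LYAR, a nucleolar protein, was at 7.95, 8.12 and 8.03 at 24 h, against 8.91, 8.92 and 9.06 at 0 min (change -0.93 ± 0.09, adjusted p = 0.00346). BYSL, needed for the small subunit, was at 7.46, 7.56 and 7.34 at 24 h, against 8.15, 8.13 and 8.17 at 0 min (change -0.69 ± 0.09, adjusted p = 0.00797), and had an adjusted p of 0.361 in the fit to 25 arrays. All 3 assembly factors stood lower on every 24 h array. The promoters of MRTO4 (chr1:19251555-19251854, plus strand) and BYSL (chr6:41921249-41921548, plus strand) are shown, from the same table and window, because they hold CACGTG, the E-box that MYC and MAX bind, in capitals.
MRTO4: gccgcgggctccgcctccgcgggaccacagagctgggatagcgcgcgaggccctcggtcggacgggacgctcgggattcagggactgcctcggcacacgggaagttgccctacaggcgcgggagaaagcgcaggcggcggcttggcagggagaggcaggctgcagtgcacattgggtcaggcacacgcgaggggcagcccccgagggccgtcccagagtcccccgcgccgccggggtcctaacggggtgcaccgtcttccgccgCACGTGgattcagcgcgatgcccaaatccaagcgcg
BYSL: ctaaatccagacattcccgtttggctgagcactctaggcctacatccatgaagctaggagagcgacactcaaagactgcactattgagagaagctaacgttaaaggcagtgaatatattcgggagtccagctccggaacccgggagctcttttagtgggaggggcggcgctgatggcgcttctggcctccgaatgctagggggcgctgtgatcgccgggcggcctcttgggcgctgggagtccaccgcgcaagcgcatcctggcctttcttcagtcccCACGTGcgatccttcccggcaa
CACGTG reads alike on both strands, and it was in the promoters of 4 of the 10 fallen members with a promoter in the table (PES1, BYSL, RRP9 and MRTO4) and 8 of 20 such tested members. It was in 7.43% of all promoters, 10.6% of those of tested genes and 18.6% of those of all called genes that fell. None of the 17 tested ribosomal protein genes was called, and their changes ran from -0.16 to 0.18. The count of 13 was 4 without 24 h replicate 1, 6, 7 and 6 without 0 min replicates 1, 2 and 3, and 8 without the 2 arrays that deviate together. It was 6 in the fit to 25 arrays, and the lowest count under any alternative was 1.

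Genes that FOXO factors activate or that PI3K signalling restrains rose in 11 of 31 tested members and fell in 2. The shares over all genes were 7.09% and 3.55%, and the list median was 0.26. FOXO1 itself was at 9.73, 9.68 and 9.87 at 24 h, against 8.80, 8.84 and 8.91 at 0 min (change 0.92 ± 0.09, adjusted p = 0.00346). KLHL24, a ubiquitin ligase adaptor, changed by 1.61 ± 0.15 (adjusted p = 0.00306), with 0.14 to 1.65 over its tested probe sets. PIK3IP1, an inhibitor of PI3K, was at 5.01, 4.56 and 4.51 at 24 h, against 3.59, 3.12 and 3.25 at 0 min (change 1.38 ± 0.18, adjusted p = 0.00796, 0.0728 in the fit to 25 arrays). The yippee-like genes YPEL2, YPEL3 and YPEL5 rose by 0.98, 0.60 and 0.54. FBXO32, the atrogin ubiquitin ligase and a textbook FOXO target, went against the list. It was at 6.35, 6.36 and 5.79 at 24 h, against 7.99, 7.93 and 8.16 at 0 min (change -1.86 ± 0.17, adjusted p = 0.00306), and its tested probe sets gave -1.86 to -0.23. FOXO4 was the other member that fell, by 0.59, and was called in 1 of the 6 fits that leave out 1 array, that without 24 h replicate 2. The forkhead element GTAAACA, on either strand, was in 2 of 11 promoters of risen members (YPEL3 and BCL2L11) and 4 of 27 of tested members. It was in 3.41% of all promoters, 2.2% of those of tested genes and 3.24% of those of all genes called higher. The count of 11 was 3 without 24 h replicate 1, 7 without 0 min replicate 2 or 3, and 6 without the 2 arrays that deviate together. It was 5 in the fit to 25 arrays, and the lowest count under any alternative was 2.

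**Figure D4:**
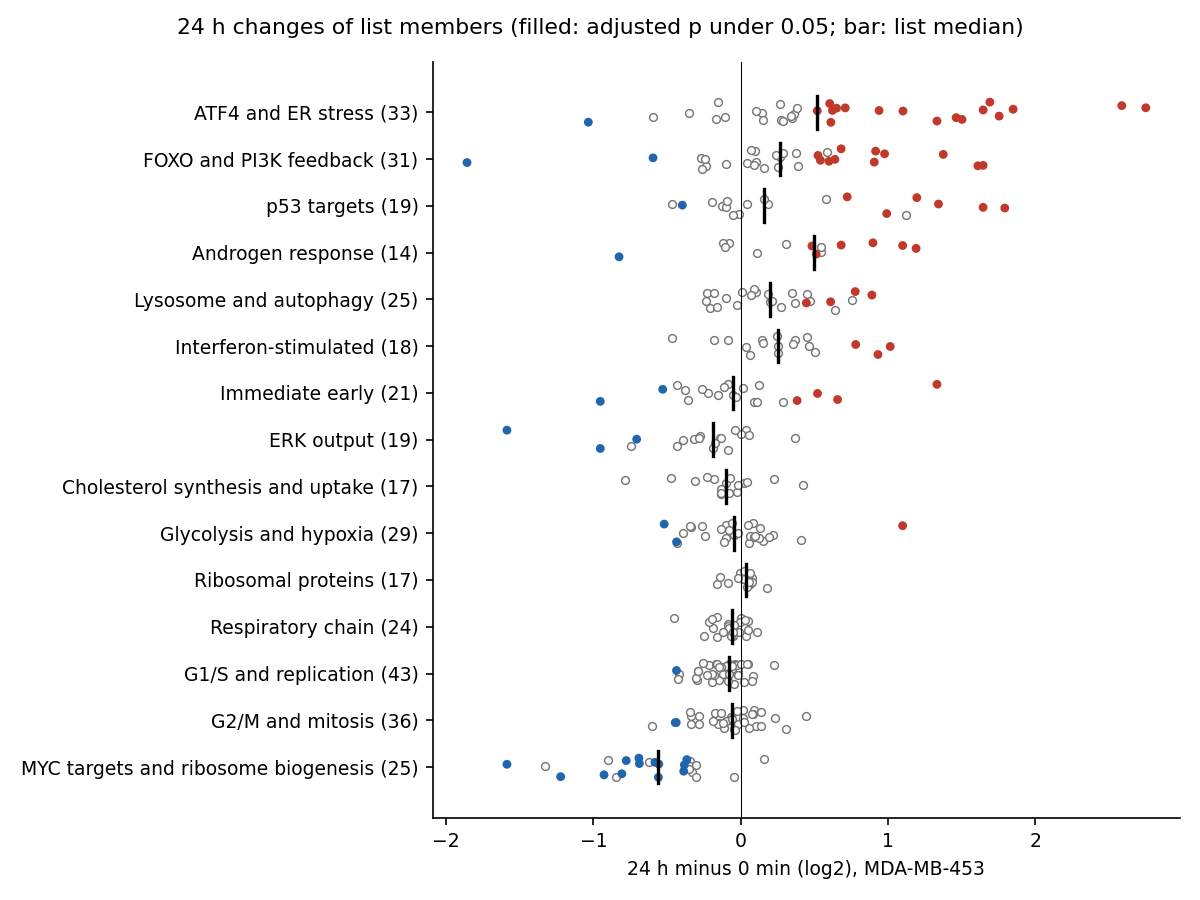
Change at 24 h against 0 min (log2) of the tested members of 15 gene lists, with their number in brackets. Filled points passed the adjusted p of 0.05 (red higher, blue lower), open points did not, and black bars are medians. The ATF4 list has its median at 0.52, the MYC and ribosome biogenesis list at -0.56, and the ribosomal protein and respiratory chain lists have no filled point.

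Genes of cell death changed in few members. Among 7 BH3-only genes, which encode triggers of mitochondrial death, PMAIP1 and BCL2L11 rose and BID fell. PMAIP1, also called NOXA, was at 5.42, 4.49 and 5.48 at 24 h, against 3.67, 3.34 and 3.00 at 0 min (change 1.79 ± 0.30, adjusted p = 0.0164). BCL2L11, which encodes BIM, was at 9.81, 9.91 and 9.72 at 24 h, against 9.32, 9.15 and 9.40 at 0 min (change 0.52 ± 0.10, adjusted p = 0.0268). BID, the BH3-only protein that caspase 8 cleaves, was at 8.09, 8.29 and 8.40 at 24 h, against 8.85, 8.86 and 8.63 at 0 min (change -0.52 ± 0.12, adjusted p = 0.0406). The calls of BCL2L11 and BID were lost in 5 of the 6 fits that leave out 1 array and in the fit to 25 arrays (adjusted p = 0.0939 and 0.594), and other BCL2L11 probe sets gave changes near 0 or below it. PMAIP1 was not called without 0 min replicate 2, 0 min replicate 3 or 24 h replicate 1. Of 17 genes for caspases and death receptors TNFSF10 alone was called. TNFSF10, the death ligand TRAIL, was at 10.09, 10.25 and 9.80 at 24 h, against 8.55, 8.81 and 8.28 at 0 min (change 1.50 ± 0.17, adjusted p = 0.00544). CASP8, which starts the caspase cascade below such receptors, changed by -0.02 ± 0.15 (adjusted p = 0.941), and CFLAR, its inhibitor, by -0.28 ± 0.37 (adjusted p = 0.685). Of 8 BCL2-like survival genes with BAX and BAK1 none was called, and BCL2 and BCL2L1 changed by 0.48 and 0.27 (adjusted p = 0.151 and 0.16).

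Targets of p53 rose in 6 of 19 tested members and fell in 1, beside 7.09% and 3.55% of all genes, with a median of 0.16. Those that rose included GDF15, a secreted stress cytokine, with a change of 1.34 ± 0.16 (adjusted p = 0.00582), DDB2, a damage recognition protein, with 1.20 ± 0.16 (adjusted p = 0.00837), and SESN2, which is also in the ATF4 and FOXO lists, with 1.65 ± 0.24 (adjusted p = 0.0104). TP53I3 changed by 0.99 (adjusted p = 0.00496, 0.188 in the fit to 25 arrays). CDKN1A, the best known p53 target, was at 6.51, 6.23 and 6.70 at 24 h, against 6.52, 6.41 and 6.39 at 0 min (change 0.04 ± 0.13, adjusted p = 0.882). TIGAR was the member that fell, by 0.40, and it was called in none of the 6 fits that leave out 1 array. Without 24 h replicate 1, 3 members rose, and SESN2 was not called. Of 22 DNA repair genes XRCC1 rose by 0.54 and CHEK1 and XRCC3 fell by 0.53 and 0.66, and the other tested CHEK1 probe sets gave -0.17, 0.07 and 1.08. The calls of XRCC1 and CHEK1 were lost in 4 and that of XRCC3 in 5 of the 6 fits that leave out 1 array.

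Few cell cycle genes were called. Of 43 genes of G1/S and replication, CDC25A alone was called, with a fall of 0.44, and the median was -0.08. Of 36 genes of G2/M and mitosis, KIF23 and PLK1 were called, both with falls of 0.44, and the median was -0.06. These 3 calls were lost in each of the 6 fits that leave out 1 array. Among 11 cyclins and CDK inhibitors CDKN2B was called. This inhibitor of CDK4 and CDK6 was at 7.43, 6.67 and 7.08 at 24 h, against 6.05, 5.68 and 4.96 at 0 min (change 1.50 ± 0.31, adjusted p = 0.0306), and it was not called without 0 min replicate 2 or 3 or 24 h replicate 1 or 3. None of 11 histone genes was called, with H3C8 and H1-2 at -0.29 each.

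Androgen-responsive genes rose in 6 of 14 tested members and fell in 1, beside 7.09% and 3.55% of all genes, with a median of 0.50. NDRG1, also induced by hypoxia, was at 5.80, 5.89 and 5.83 at 24 h, against 4.78, 4.63 and 4.81 at 0 min (change 1.10 ± 0.09, adjusted p = 0.00234). PIP, the prolactin-induced protein of apocrine cells, was at 11.68, 11.57 and 11.77 at 24 h, against 10.75, 10.76 and 10.82 at 0 min (change 0.90 ± 0.09, adjusted p = 0.00346). Both genes had every 24 h array above every 0 min array. PMEPA1, a TGF-beta feedback gene, rose by 0.51, and SGK1, a kinase downstream of PI3K, fell by 0.83 and was not called without 24 h replicate 1. The 6 members were 3, 2 and 2 without 0 min replicates 1, 2 and 3 and 2 without 24 h replicate 1. They were 4 in the fit to 25 arrays and 2 without the 2 arrays that deviate together, and the lowest count under any alternative was 1. Among 17 luminal and apocrine markers STC2 and PIP rose and FASN fell. STC2, a secreted glycoprotein, was at 9.79, 9.32 and 9.84 at 24 h, against 7.61, 7.11 and 6.47 at 0 min (change 2.59 ± 0.30, adjusted p = 0.00513), with 0.87 in its other tested probe set. FASN, fatty acid synthase, changed by -0.82 ± 0.15 (adjusted p = 0.0205), a call lost without 24 h replicate 1 or when any 1 of the 0 min arrays was left out. None of 4 basal markers was called, with TRIM29 and ITGB4 at 0.37 and 0.19.

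In metabolism the calls were scattered. Of 29 genes of glycolysis and hypoxia NDRG1 rose, and TPI1 and ENO1, glycolytic enzymes, fell by 0.44 and 0.52. The calls of TPI1 and ENO1 were lost in 5 of the 6 fits that leave out 1 array. PNPLA3 and FASN fell among 16 genes of fatty acid and glyceride synthesis, but PNPLA3 was called in none of the 6 fits that leave out 1 array and had an adjusted p of 0.387 in the fit to 25 arrays. Neither was called when any 1 of the 0 min arrays was left out or without 24 h replicate 1. GPAT3, among the 12 largest falls, is not in this list. None was called of 17 genes of cholesterol synthesis and uptake (LSS 0.23, SQLE -0.31), of 24 respiratory chain genes (CYC1 -0.25, NDUFB3 -0.19) or of 12 genes of lipid droplets and fatty acid oxidation (ACADM 0.45, HILPDA 0.36). Lysosome and autophagy genes rose in 4 of 25 and none fell, with a median of 0.20. They were HEXA, GAA and CTSA, lysosomal hydrolases, with 0.89, 0.78 and 0.45, and LAMP2, a membrane protein of the lysosome, with 0.61. Without 1 array the count of 4 ran from 1 to 6. It was 2, 1 and 2 without 0 min replicates 1, 2 and 3 and 1, 2 and 6 without 24 h replicates 1, 2 and 3. It was 0 without the 2 arrays that deviate together. Another LAMP2 probe set gave -0.10. CTSC, the lysosomal protease among the 12 largest falls, is not in this list.

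Of 18 NRF2 targets and metallothioneins SLC7A11 and MT1F rose, and HMOX1 and TKT fell. MT1F, a metal-binding metallothionein, was at 9.83, 9.73 and 10.18 at 24 h, against 8.67, 9.16 and 8.69 at 0 min (change 1.08 ± 0.18, adjusted p = 0.0162). CYP1A1, the standard target of the aryl hydrocarbon receptor, was at 6.50, 6.61 and 6.96 at 24 h, against 4.66, 4.14 and 4.37 at 0 min (change 2.30 ± 0.18, adjusted p = 0.00234). It was the only call among 8 targets of that receptor. MT1F was not called without 0 min replicate 1, 0 min replicate 3 or 24 h replicate 1, and TKT was lost in 5 of the 6 fits that leave out 1 array, all but that without 24 h replicate 2. Over these fits 1 to 4 members of the NRF2 and metallothionein list rose and 1 or 2 fell, with 4 risen without 24 h replicate 2. Of 18 interferon-stimulated genes IFIT1, SAMD9 and ISG20 rose, by 0.78, 1.02 and 0.93, and the median was 0.25. The interferon count was 2 without 0 min replicate 1 and 1 without 0 min replicate 2, 0 min replicate 3 or 24 h replicate 1. Class I antigen presentation (13 genes), NF-kB targets (4) and Wnt response (7) had no call, with HLA-B at -0.66, HLA-F at -0.49, NFKBIA at 0.15, ICAM1 at -0.22, NKD1 at 0.48 and LEF1 at -0.34. Of 14 ID and TGF-beta response genes SMAD9 and PMEPA1 rose, by 1.18 and 0.51, and TGFBR2, the TGF-beta receptor, fell by 1.17. SMAD9 was not called without 0 min replicate 1 or 2, and PMEPA1 was not called without 24 h replicate 1 or when any 1 of the 0 min arrays was left out. Among 11 genes of YAP and cell density AMOTL1 rose by 0.50, and CRIM1 and CCN1 fell by 1.11 and 0.53. AMOTL1 was not called without 24 h replicate 1 or when any 1 of the 0 min arrays was left out, and its other tested probe sets gave 0.26, -0.27 and -0.23. CRIM1 was not called without 0 min replicate 1, 0 min replicate 2 or 24 h replicate 1, and CCN1 was lost in 5 of the 6 fits. Among heat shock genes DNAJB4 rose by 1.21 and BAG3 fell by 0.51, of 11 tested. DNAJB4 was not called without 0 min replicate 2, 0 min replicate 3 or 24 h replicate 1, and BAG3 was called only without 24 h replicate 3 among the 6 fits. CIART fell by 0.83, the only call of 15 circadian clock genes, and was not called when any 1 of the 0 min arrays was left out.

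The change at 24 h was then compared with that in the EGFR-high line BT20 and in MCF, in the fit to 25 arrays and as a test of the difference itself. Against BT20, 900 genes had a higher change in MDA-MB-453 (7.12% of 12643) and 972 a lower one (7.69%). Without BT20 0 min replicate 4 these counts were 1143 and 1346. Against MCF, 239 had a higher change (1.89%) and 57 a lower one (0.451%), and 114 were called in both directions together when only the arrays of these 2 lines were fitted. These counts were 340 and 96 without MCF 24 h replicate 3, 340 and 77 without MCF 0 min replicate 2, and elsewhere 178 to 240 and 44 to 58 without 1 array. On their own, BT20 had 1932 genes higher (17.8%) and 1409 lower (13%) at 24 h among the 10848, and MCF had 112 higher (1.03%) and 164 lower (1.51%).

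ERK output genes were compared first, since 3 of 19 fell in MDA-MB-453 on its 6 arrays, beside 3.55% of all genes. The fit to 25 arrays called 1 of these 3, beside 1.89% of all genes lower. In BT20, 18 of the 19 tested members fell, with a median of -1.98, beside 13% of all genes. In MCF 5 fell, with a median of -0.57, beside 1.51%. The change in MDA-MB-453 was higher than in BT20 in 13 members, beside 7.12% of all genes, and than in MCF in 4, beside 1.89%. It was lower in none. DUSP6 changed by -0.19 in MDA-MB-453, by -5.93 in BT20 and by -1.56 in MCF. The differences of 5.74 ± 0.29 from BT20 and 1.38 from MCF had adjusted p-values of 1.11e-11 and 0.0112. SPRY4 changed by -0.09 in MDA-MB-453, by -4.76 in BT20 and by -1.64 in MCF, with adjusted p-values of 2.70e-11 and 0.0013 for the differences. For EGR1 the changes in MDA-MB-453 (-0.95) and BT20 (-0.80) gave no call of a difference (-0.15, adjusted p = 0.891). CCND1 differed from BT20 by 0.86 (adjusted p = 0.00215). ERBB3 and ERBB2 rose in BT20 by 0.75 and 1.31, and their changes in MDA-MB-453 were lower by tests of the difference (-0.59, adjusted p = 0.0036 for ERBB3, and -1.29, adjusted p = 0.0338 for ERBB2). The ERBB2 difference was not called without MDA-MB-453 0 min replicate 3, 24 h replicate 1 or 24 h replicate 3, nor without BT20 0 min replicate 3 or 4, nor when any 1 of the BT20 24 h arrays was left out.

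In the fit to 25 arrays, of 33 ATF4 targets 12 rose in MDA-MB-453, 20 in BT20 and 7 in MCF, with medians of 0.52, 0.49 and 0.28. Of all genes, 5.01%, 17.8% and 1.03% were called higher in these lines, so the counts are not to be compared without these shares. A higher change in MDA-MB-453 than in BT20 was called in 2 members and a lower one in 4, beside 7.12% and 7.69% of all genes. Without BT20 0 min replicate 4 these counts of members were 4 and 4. Of 43 G1/S genes 27 fell in BT20, 12 in MCF and 0 in MDA-MB-453 in the fit to 25 arrays, beside 13%, 1.51% and 1.89% of all genes. The change was higher in MDA-MB-453 than in BT20 in 6 members, beside 7.12% of all genes, or in 10 without BT20 0 min replicate 4. It was higher than in MCF in none, beside 1.89% of all genes. Cholesterol genes rose in 8 of 17 in BT20, beside 17.8% of all genes, and 6 had a lower change in MDA-MB-453, beside 7.69%. HMOX1 rose by 2.48 in BT20 and had a lower change in MDA-MB-453, with a difference of -4.18 (adjusted p = 4.26e-09), and MT1F fell by 2.14 in BT20 and differed by 3.21 (adjusted p = 9.97e-09). S100P rose by 1.12 in BT20, and the difference was 3.03, while the changes of BBOX1, DOCK2 and PRDM1 were lower in MDA-MB-453, with differences of -2.41, -3.26 and -2.19. In BT20, PRDM1 rose by 0.38, and BBOX1 and DOCK2, at 0.27 and -0.30, were not called. PIP and TNFSF10 had higher changes than in BT20, by 1.33 and 1.50. However, PIP averaged 3.04 at 0 min and 2.61 at 24 h in BT20, below 4 at both times, so the size of its difference is inexact. CHAC1, ASNS, CYP1A1 and ADHFE1 rose in BT20 as well, and their differences from BT20 were not called (adjusted p = 0.0706 to 0.727).

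Of the 544 genes higher in MDA-MB-453 in that fit, 286 (52.6%) were higher in BT20, which is 14.8% of the genes higher there, and 25 were lower. Of the 205 lower genes, 116 (56.6%) were lower in BT20, which is 8.23% of those lower there, and 19 were higher. With MCF the shares were 47 of 544 (8.64%, and 42% of the genes higher in MCF) and 18 of 205 (8.78%, and 11% of those lower). In all 3 lines 34 genes were called higher and 13 lower. Chosen after their values were seen, examples of the higher set are CHAC1, ASNS, DDIT3, HERPUD1 and NUPR1, of the ATF4 list, CYP1A1, and DHRS3, a retinaldehyde reductase, which changed by 1.74 in MDA-MB-453, 1.57 in BT20 and 2.01 in MCF. KCTD12 changed by -1.39, -1.54 and -1.52, TCOF1, a nucleolar factor, by -0.80, -1.35 and -0.87, and LYAR by -0.93, -1.38 and -0.63 in these 3 lines in the same order.

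**Figure D5:**
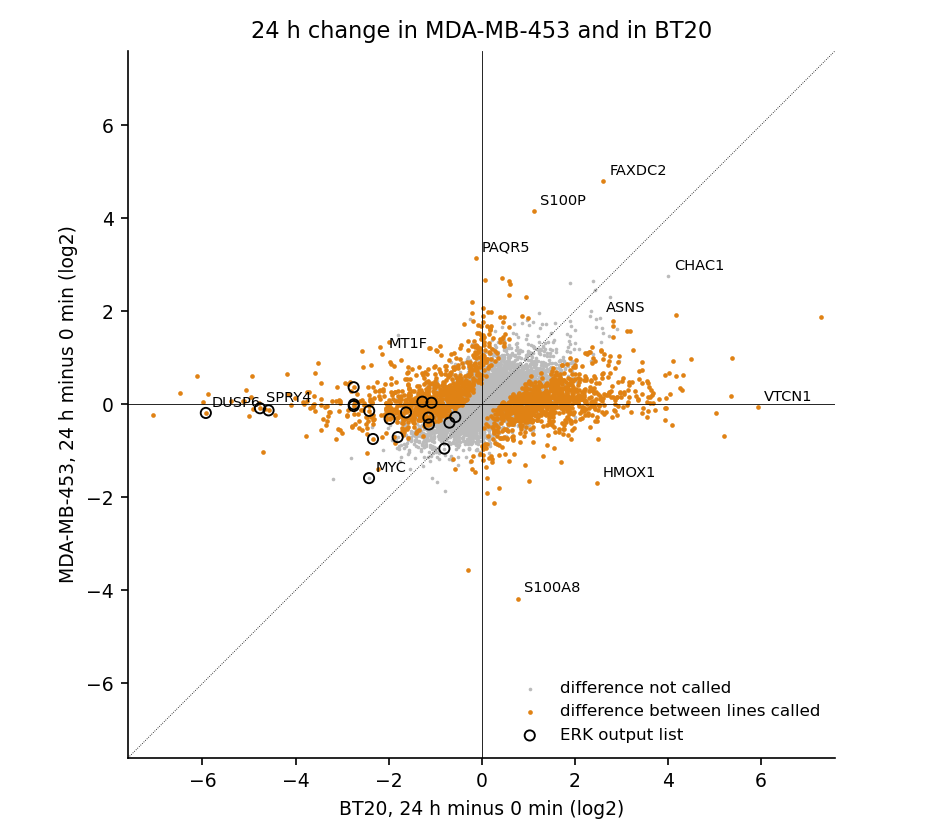
Change at 24 h against 0 min (log2) in MDA-MB-453 (vertical axis) and in BT20 (horizontal axis), 1 point per gene of 12643, from the fit to 25 arrays. Orange points have a called difference between the lines, circles are the 19 ERK output genes, and the dotted line marks equal change. The circled genes spread to the left at heights near 0, with DUSP6 at -5.93 in BT20 and -0.19 in MDA-MB-453.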

How the data were processed

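RNA from 25 samples of breast cancer lines was measured on Affymetrix arrays with 54613 probe sets. The values used are the deposited log2 expression values, made by the authors with GCRMA 2.20.0 in R 2.11.1, per the submitters' processing notes, and GCRMA corrects for background and normalizes between arrays. GEO's platform annotation gave 1 symbol to 41091 probe sets, several to 1801 and none to 11721. Each of 19775 genes was read from its probe set with the highest mean over the 25 arrays. Genes above 4 on at least 3 of the 6 MDA-MB-453 arrays (10848) were fitted in R 4.3.3 with limma 3.58.1 (lmFit, eBayes, two-sided, Benjamini-Hochberg over all tested genes). The 6 arrays were fitted alone because only this line's spread then enters, and the number of arrays limits precision. Differences between lines were contrasts in 1 fit to the 25 arrays with 8 group means (12643 genes). The pipeline was tested on simulated data in which each gene and array varied independently. In the 6 real arrays 1 shared axis held 66.1% of the within-group variance, so that test does not give the error rate here. GCRMA compresses low values, so a change that reaches below 4 (83 called genes) has an inexact size.

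The named genes are the 12 largest rises and falls among called genes without overlap whose higher time averaged 6 or more, up to 4 called members of each list (up to 2 uncalled where none was called), the 6 largest differences each way between lines, and 15 genes named in every case, of which 1 is not reported here. A few others are named beside small counts or as examples after their values were seen. The members and the 42 lists were chosen with earlier results of these data known. Same-numbered replicates did not deviate together (r = 0.11, -0.46 and -0.684), so numbers were not used to pair arrays. Alternatives covered the arrays fitted, the filter, the probe set, the normalization, array weights, a replicate block and leaving out arrays, and a covariate for the within-group axis and the omission of both deviating arrays were chosen after seeing the data.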

Additional observations from a re-analysis of the deposited data

Results flagged for a closer look

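The changes of these genes differed between MDA-MB-453 and another line by a test of the difference itself (limma, fit to 25 arrays, log2 change in MDA-MB-453 minus that in the other line). Against BT20, the 6 largest differences on the higher side were HSD3B1 (6.84), CEMIP (6.74), LINC01127 (6.72), ARNT2 (6.12), FOSL1 (6.04) and DUSP6 (5.74). HSD3B1, a steroid dehydrogenase, CEMIP, a hyaluronan-binding protein, LINC01127, ARNT2, a bHLH-PAS partner, and FOSL1, an AP-1 subunit, had MDA-MB-453 means below 4 at both times and fell in BT20 by 5.89 to 7.07. DUSP6 averaged 12.24 at 24 h and 12.43 at 0 min in MDA-MB-453.

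On the lower side against BT20 stood VTCN1 (-6.01), PELI2 (-5.88), LINC01133 (-5.43), ALDH1L2 (-5.22), SELENOP (-5.20) and S100A8 (-4.95). VTCN1, ALDH1L2 and SELENOP rose in BT20 by 5.04 to 5.94 and were not called higher or lower in MDA-MB-453, where ALDH1L2 was below 4. PELI2 rose by 5.20 in BT20 and changed by -0.68 in MDA-MB-453 (adjusted p = 0.0503 in this fit, 0.00797 on the 6 arrays alone), LINC01133 rose in both lines, by 1.87 in MDA-MB-453 and 7.30 in BT20, and S100A8 fell in MDA-MB-453 alone of these 2 lines. Of the genes named in every case, SPRY4 (4.68), CCND1 (0.858), ERBB2 (-1.29) and ERBB3 (-0.593) also differed from BT20.

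Against MCF, the differences were FAXDC2 (5.08), S100P (3.85), PAQR5 (3.36), DQX1 (2.84), SPRR1B (2.62) and STC2 (2.54) on the higher side and DOCK2 (-3.69), PRDM1 (-2.49), BBOX1 (-2.26), S100A8 (-2.22), FBXO32 (-1.90) and HMOX1 (-1.84) on the lower. SPRR1B was below 4 in MDA-MB-453 and fell by 3.39 in MCF, and S100A8 fell in both lines. PAQR5, DQX1, DOCK2 and BBOX1 averaged below 4 in MCF at both times, where a fall could not be measured. S100P averaged 12.47 at 24 h and 12.17 at 0 min in MCF, and STC2 averaged 12.40 and 12.36. DUSP6 (1.38) and SPRY4 (1.55) differed as well. The S100A8 difference from MCF was not called without MDA-MB-453 0 min replicate 1, 0 min replicate 2 or 24 h replicate 2, without MCF 0 min replicate 2 or 3, or with the arrays of these 2 lines alone.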

How the results depend on the processing

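Against 1154 called genes, the fit to all 25 arrays called 749, the within-group covariate 3018 and the omission of both deviating arrays 632. Array weights gave 3940, but the weights did not converge and 24 h replicate 1 took a weight of 32.3. Leaving out 1 array gave 340 to 1074. The omission of both deviating arrays left no call in the lists of ErbB ligands, other receptor tyrosine kinases and G1/S. It also left none in those of DNA repair, lysosome and autophagy, and the circadian clock. In the BH3-only list it left 1 rise and no fall. The replicate block gave 105, and its adjustment left 24 of 89 named calls. The 6 fits without 1 array kept 45 of these 89 calls throughout, and the fit to 25 arrays kept 62. Under the other settings the count ran from 875 without a filter to 1294 with a trended and robust variance, and 1552 of 24685 probe sets were called when each was tested by itself. The share of higher calls was 66.6%, and 81.9% with the replicate block and 77.1% without 0 min replicate 1. The count against BT20 was 1872, with 6018 under array weights, 1557 to 2489 without 1 array and 2442 with the replicate block. Against MCF it was 296, with 114 for the 2 lines alone, 6357 under array weights, 226 to 436 without 1 array and 412 with the replicate block. Averaging the probe sets of each gene turned the sign of CHEK1 (0.112), KIF23 (0.0163), KLF2 (-0.67, called, adjusted p = 0.0215) and LRIG2 (-0.0709), and choosing the probe set by the 6 arrays turned CHEK1 (0.0663), FN1 (0.123) and LAMP2 (-0.097). The cause of these moves was not tested. Tested probe sets disagreed in sign in 12 of 51 named genes with more than 1. With 3 arrays a time, values below 4 carry little information on size.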
